A study of Mus musculus with 39 samples.

Results

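The products of 7 genes that goblet cells use to make and protect intestinal mucus were followed in single crypt cells of the irradiated mouse intestine. They were Muc2, Tff3, Fcgbp, Zg16, Clca1, Spdef and Spink4, and were taken by name from the 25219 genes of the expression table. The study asked how heterogeneous the surviving Lgr5-derivatives are after irradiation. All 39 cells belonged to 1 group. The genotype of the mice was Lgr5-EGFP-Ires-CreERT2:Rosa-lsl-tdTomato, in which tamoxifen switches on tdTomato permanently in cells that express Lgr5, and so also in their progeny. Tamoxifen was given 24 h before 10 Gy of total body irradiation (TBI), and tdTomato+ Sca1- crypt epithelial cells were sorted 48 h after it. Single cells were taken up by a C1 chip built for diameters of 5 to 10 µm. No cell of an unirradiated mouse or of the Sca1+ gate was analysed here, and the labels name no animal for any cell. They count here as a single biological sample, every spread given is over cells rather than mice, and no p-value was computed.

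Goblet cells are secretory cells of the intestinal epithelium that store mucus in granules and release it onto the surface. The gel is built by the mucin Muc2, and other secreted proteins travel with it: Fcgbp and Zg16, which are abundant in the mucus layer, Clca1, a metalloprotease that cleaves Muc2, and the trefoil peptide Tff3. Spink4 belongs to the Kazal-type protease inhibitors and is secreted by goblet cells, and Spdef is an ETS transcription factor needed for their maturation. In the secretory lineage these genes act downstream of Atoh1, the transcription factor that commits crypt progenitors to secretory fates.

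RefSeq promoter windows of GRCm38.p6 were at hand for 3 of the 7 genes, Muc2, Fcgbp and Spdef, and are shown because these genes include the mucin, a protein bound to it and the transcription factor. Each run holds the 250 bases before the transcription start, read 5′ to 3′ on the strand of the gene, and capitals mark the letters CAGCTG, an E-box of the kind that basic helix-loop-helix factors such as Atoh1 recognise, and TATAA, the core of a TATA box.
Muc2, chr7:141690090-141690339, plus strand: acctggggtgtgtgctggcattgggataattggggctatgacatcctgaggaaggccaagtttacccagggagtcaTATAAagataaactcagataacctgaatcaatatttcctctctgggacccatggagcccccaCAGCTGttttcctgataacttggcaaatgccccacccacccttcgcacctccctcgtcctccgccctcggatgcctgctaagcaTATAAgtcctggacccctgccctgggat
Fcgbp, chr7:28070986-28071235, plus strand: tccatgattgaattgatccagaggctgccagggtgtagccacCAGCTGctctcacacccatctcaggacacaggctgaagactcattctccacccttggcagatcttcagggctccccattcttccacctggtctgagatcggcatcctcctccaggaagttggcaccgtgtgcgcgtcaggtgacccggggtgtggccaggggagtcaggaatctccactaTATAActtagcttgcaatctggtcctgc
Spdef, chr17:27728952-27729201, minus strand: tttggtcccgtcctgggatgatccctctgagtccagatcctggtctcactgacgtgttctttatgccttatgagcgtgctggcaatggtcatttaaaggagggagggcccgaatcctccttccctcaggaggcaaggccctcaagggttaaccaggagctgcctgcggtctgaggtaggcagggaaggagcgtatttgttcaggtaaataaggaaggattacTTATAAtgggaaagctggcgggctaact
CAGCTG, which reads the same on both strands, occurred 112 bases before the start of Muc2 and 208 bases before that of Fcgbp, and was not found in the Spdef window. It was present in 13.001% of 32851 promoter windows of the same length. TATAA was searched on both strands and began 28 bases before the start of Muc2 and Fcgbp and 27 bases before that of Spdef, with a further copy 174 bases before the start of Muc2. The Spdef copy lies within TTATAA and is therefore also read on the opposite strand. Of all windows, 22.8% held TATAA and 3.86% held it between 20 and 35 bases before the start, an interval chosen after these positions were seen. The CAGCTG and TATAA matches did not overlap. These matches describe letters and were not tested as binding sites.

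Detection in a cell was set at 1 FPKM, where FPKM is the number of fragments per kilobase of transcript per 1000000 fragments of that cell. All 7 genes were detected in at least 1 cell, whereas 49.3% of all genes in the table were. Their median was 15 cells per gene, beside 10 cells for the 12426 genes detected at all. Tff3, Spink4, Zg16 and Fcgbp were each found in at least 15 cells, a spread reached by 19.4% of all genes, and Muc2, Clca1 and Spdef in 5 cells or fewer. All 7 genes were found in at least 3 cells, as were 39.7% of all genes. At least 1 of the 7 genes was detected in 39 of 39 cells, and 2 or more in 29 of 39 cells (74.4%, exact 95% interval 57.9 to 87.0, counting error only). No single gene was found in all cells, and at 10 or more estimated counts 3 cells had none of the 7. Most of the RNA lay in few cells. Their summed level ran from 3.09 to 18020.4 FPKM per cell with a median of 86.6 FPKM, which is 0.000619% to 2.92% of all FPKM in a cell.

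**Figure D1:**
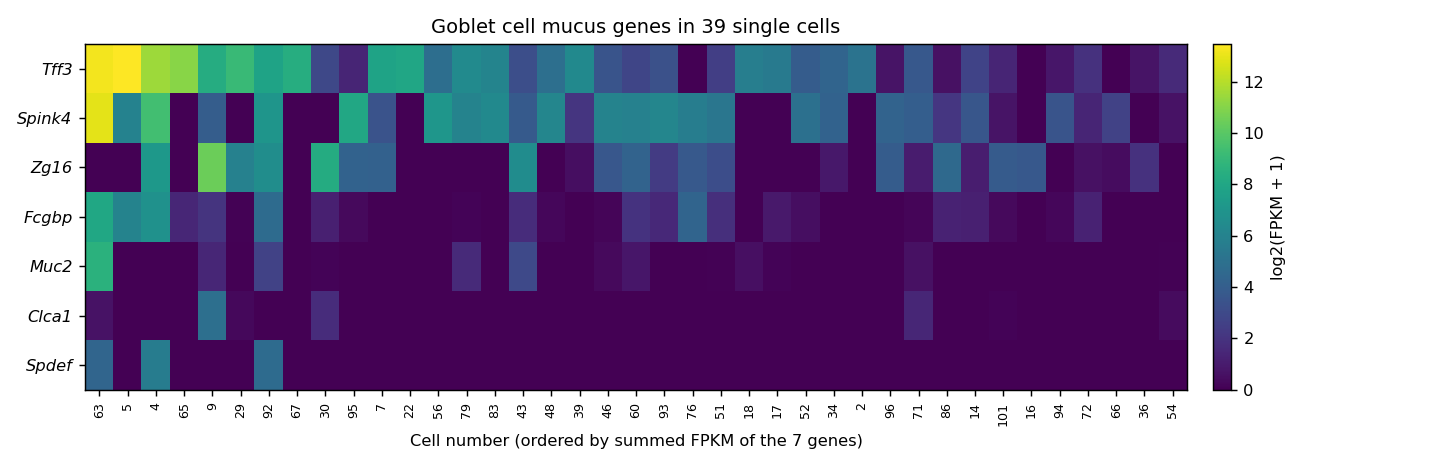
Heat map of log2(FPKM + 1) for the 7 genes (rows) in 39 single cells (columns, numbered as in the labels and ordered by the summed FPKM of the 7 genes). Tff3, Spink4 and Zg16 had signal across most of the map, whereas Muc2 was bright only in cell 63 and Spdef was above 0 in cells 63, 4 and 92.

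The depth per cell was 398418 to 3903971 estimated counts over all genes (median 3089188), with 2287 to 5779 detected genes. Cell 9 had the lowest counts and only 33.4% of the total behind its FPKM on genes, and cell 43 had 661255 counts, so low values in these 2 cells rest on few fragments. Cell 79 had only 2335 genes, from 1466913 counts. The number of the 7 genes per cell was little related to depth over the 39 cells (Spearman rho -0.19 with counts and -0.03 with genes detected). The epithelial markers Epcam, Krt8 and Krt18 were at 1 FPKM or more in 39 of 39 cells. Lgr5 reached 1 FPKM in 8 cells and Ly6a, which encodes Sca1, in 4 cells, although the gate was set on the surface protein. Because a single fragment of the short Tff3 transcript is worth between 0.494 and 2.75 FPKM, depending on the cell, and 1 of the long Muc2 transcript between 0.0336 and 0.187 FPKM, detection was also read at 10 or more estimated counts.

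Muc2, the gel-forming mucin, lies at chr7:141690340-141754694 on the plus strand (mm10/GRCm38, as deposited). It was detected in 5 of 39 cells (12.8%, 4.30 to 27.4). Its level was 387 FPKM in cell 63, from 7788 estimated counts, and 6.94 FPKM in cell 43, 5.21 in cell 92, 1.996 in cell 79 and 1.75 in cell 9. The value in cell 63 was 55.8 times that of the next cell and made up 95.5% of all Muc2 FPKM in the series. The median was 0 FPKM, 24 cells had no fragment, and 10 others lay between 0 and 0.790 FPKM. At 10 or more counts Muc2 was present in 8 cells, since its long transcript collects fragments at low FPKM. A high level of the mucin was thus seen in 1 cell, and the few other positive cells were far below it.

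Fcgbp, at chr7:28071236-28120864 on the plus strand, encodes a large protein of the mucus layer. It was detected in 15 of 39 cells (38.5%, 23.4 to 55.4) with a median of 0.172 FPKM over all cells, in 71.8% with any value above 0 and in 12.8% at 5 FPKM. Cell 63 had the highest level with 260 FPKM, followed by 110.0 FPKM in cell 4, 63.2 in cell 5, 25.2 in cell 92 and 19.3 in cell 76. The other 10 positive cells lay between 1.23 and 3.02 FPKM, so a gap separated 5 cells from the rest. Fcgbp counts were not whole numbers in 10 cells. The gene 9530053A07Rik, looked at after the values were seen, begins 8602 bases beyond the end of Fcgbp on the same strand, and its counts were also not whole in 10 cells. It was at 30.04 FPKM in cell 48, 18.5 in cell 94, 8.59 in cell 5 and 6.42 in the highest-numbered cell, and below 1 FPKM in cell 63. Fcgbp was at 0.170, 0.172 and 0.278 FPKM in cells 48 and 94 and in the highest-numbered cell, so only cells 4 and 5 had both genes at 1 FPKM or more, and how fragments were divided between genes was not tested.

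Zg16, at chr7:127050156-127051977 on the minus strand, encodes a small lectin-like protein that binds Gram-positive bacteria. It was detected in 20 of 39 cells (51.3%, 34.8 to 67.6) with a median of 1.01 FPKM. The highest level was 1402 FPKM in cell 9, from 1063 counts in the shallowest library, and Zg16 was the gene of rank 13 there. Cell 30 had 310.3 FPKM, cell 4 had 142 FPKM, cell 92 had 97.6 FPKM, cell 43 had 91.2 FPKM and cell 29 had 58.5 FPKM. The other 14 positive cells lay between 1.01 and 23.5 FPKM. Zg16 was at 0 in cells 63, 5 and 65, which are among the 4 cells with the most Tff3. The fourth of them, cell 4, was the third cell for both genes, so the lectin was at 0 in some but not all cells with very high Tff3.

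Clca1, at chr3:145004537-145032776 on the minus strand, was detected in 3 of 39 cells (7.69%, 1.62 to 20.9). It had 29.2 FPKM in cell 9, 2.31 in cell 30 and 1.75 in cell 71, from 102, 18 and 16 estimated counts. Cell 63 had 0.570 FPKM from 5 counts, and 32 cells had none. The 2 cells with the most Clca1 were also the 2 with the most Zg16.

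Tff3, at chr17:31125306-31129611 on the minus strand, was the most widely found of the 7 genes, in 32 of 39 cells (82.1%, 66.5 to 92.5). Levels ran from 0 in 3 cells over a median of 14.2 FPKM to 11289 FPKM in cell 5. Cell 63 followed with 9579 FPKM, cell 4 with 2849.9 and cell 65 with 2146 FPKM. Tff3 held rank 4 among all genes in cell 5, rank 5 in cell 63 and rank 8 in cell 4. A further 6 cells, numbered 29, 67, 9, 22, 7 and 92, lay between 224 and 549 FPKM, and all others were at or below 85.1 FPKM. The trefoil peptide was thus widespread at low level and very high in 4 cells, which exceeded 1000 FPKM, a level that 1.25% of all genes reach in some cell.

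Spink4, at chr4:40920056-40931395 on the plus strand, was detected in 27 of 39 cells (69.2%, 52.4 to 82.98) with a median of 12.8 FPKM. Cell 63 had 7773 FPKM, at rank 6 among its genes, and the next cell, cell 4, had 677 FPKM, which is 11.5 times lower. Cell 95 had 271 FPKM, cell 56 had 136 and cell 92 had 129 FPKM, and the other 22 positive cells were between 1.65 and 81.9 FPKM. Cell 5, the highest for Tff3, had only 61.6 FPKM of Spink4, and cell 65, the fourth for Tff3, had none. High Tff3 was therefore found both with and without high Spink4.

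Spdef, at chr17:27714447-27728951 on the minus strand, is the one transcription factor among the 7 genes. It was found in 3 of 39 cells, at 49.8 FPKM in cell 4, 25.3 in cell 92 and 20.4 in cell 63, from 330, 149 and 111 estimated counts. The other 36 cells had no Spdef fragment. Unlike the secreted products it showed no low values between 0 and 20 FPKM. A transcription factor message at 0 in a single full-length library can have been lost before amplification, so these zeros do not show absence.

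**Figure D2:**
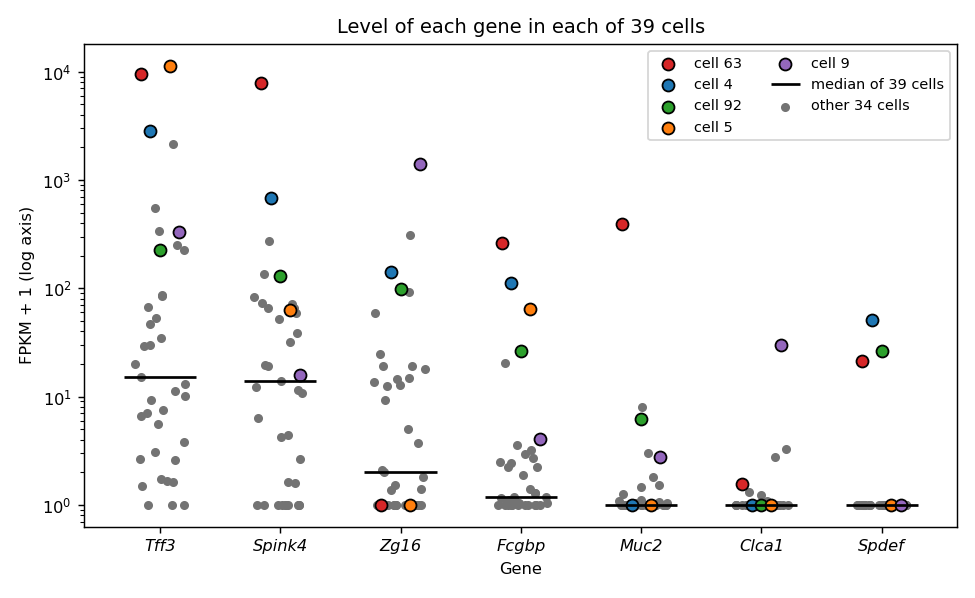
Level of each of the 7 genes in 39 single cells as FPKM + 1 on a log axis, 1 point per cell, with the median of all cells as a bar and 5 cells coloured. Cell 63 (red) was first or second for Tff3, Spink4, Fcgbp and Muc2 but at 0 for Zg16, whereas cell 9 (purple) was first for Zg16 and Clca1.

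Ordered by the mean of log2(FPKM + 1) over 39 cells, the genes ran from Tff3 (4.76 ± 3.68, SD over cells) over Spink4 (3.69 ± 3.14), Zg16 (2.38 ± 2.80), Fcgbp (1.25 ± 2.01), Muc2 (0.52 ± 1.501) and Spdef (0.38 ± 1.34) to Clca1 (0.25 ± 0.85). FPKM is scaled per transcript length, so the levels of different genes can be set side by side. Without the highest cell of each gene the means of Muc2, Spdef and Clca1 fell to 0.30, 0.24 and 0.12. Neighbours in this order differed by less than the SD of either gene, and their order was not resolved. Of the 7 genes, 5 reached 100 FPKM in at least 1 cell, all except Clca1 and Spdef, as did 21.6% of all genes. The 3 highest cells held between 82.0% (Zg16) and 100% (Spdef) of each gene's FPKM, also where a gene was widely detected. Spdef and Clca1 were detected in only 3 cells, which sets their share at or near 100%. Among genes named below the same share was 27.9% for Gcnt3, 88.8% for Agr2 and 97.6% for Fabp1. The share over all genes is not given here, so whether the 7 genes stand out was not tested.

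The genes were next read together within each cell. At 1 FPKM or more, 10 cells had 1 of the 7 genes, 10 had 2, 8 had 3, 6 had 4, 3 had 5 and 2 had 6. No cell had all 7, which allows a share of up to 7.69% by the limit of 3 counts (3 of 39) and 9.03% by the exact interval. The 2 cells with 6 genes were cell 92, which lacked only Clca1, and the shallow cell 9, which lacked only Spdef. The 3 cells with 5 genes were cell 63 (Muc2, Tff3, Fcgbp, Spdef and Spink4), cell 4 (Tff3, Fcgbp, Zg16, Spdef and Spink4) and cell 43 (Muc2, Tff3, Fcgbp, Zg16 and Spink4). At 10 or more counts, 3 cells had none of the genes, 28 of 39 had at least 2, 5 had at least 5 and 1, cell 92, had 6.

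**Figure D3:**
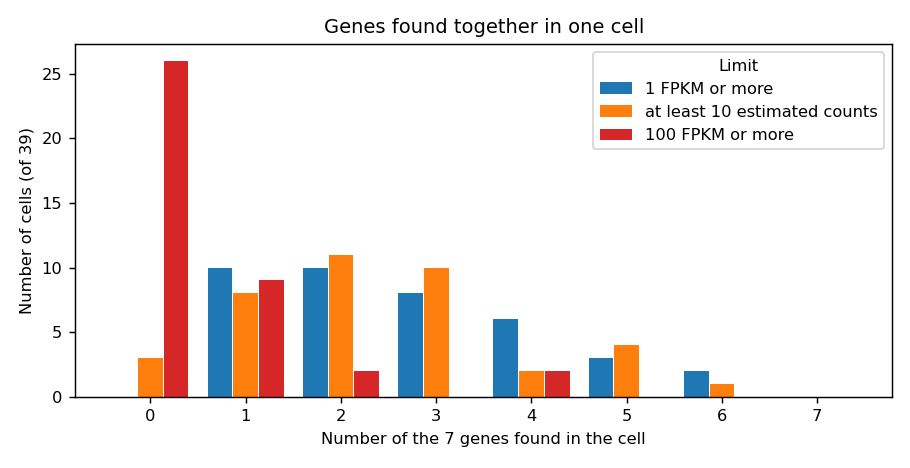
Number of cells (vertical axis, of 39) by the number of the 7 genes found in the cell (horizontal axis) at 1 FPKM or more (blue), at 10 or more estimated counts (orange) and at 100 FPKM or more (red). With the limit at 100 FPKM, 26 cells had none of the genes and 2 cells had 4.

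The amount of RNA was read next. With the limit at 100 FPKM, 26 cells had none of the 7 genes, 9 had 1, 2 had 2 and 2 had 4. The 2 cells with 4 were cell 63, with Muc2, Tff3, Fcgbp and Spink4, and cell 4, with Tff3, Fcgbp, Zg16 and Spink4. Cell 63 had 18020.4 FPKM of the 7 genes together, 2.92% of all its FPKM, cell 5 had 11414 FPKM in 3 genes, nearly all of it Tff3, and cell 4 had 3829 FPKM in 5 genes. Cell 65 had 2148 FPKM from Tff3 and Fcgbp alone, and cell 9 had 1779 FPKM in 6 genes. Cell 92, with 6 genes, had 506 FPKM, and cell 43, with 5 genes, had 121 FPKM, so neither came near the amount in cell 63. In cell 43 Tff3 and Spink4 rested on 3 and 4 counts, and only 3 of its 5 genes reached 10 counts.

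Among the 21 pairs of genes, Tff3 and Spink4 shared the most cells, 22, which is 68.8% of the cells with Tff3 and 81.5% of those with Spink4. These shares lie close to the 69.2% and 82.1% of all 39 cells that had Spink4 and Tff3, so finding 1 of these genes in a cell said little about the other. Tff3 and Zg16 shared 15 cells (46.9% of Tff3 cells, 75.0% of Zg16 cells) and Fcgbp and Spink4 shared 13 cells (86.7% of Fcgbp cells, 48.1% of Spink4 cells). Zg16 and Spink4 also shared 15 cells (75.0% of Zg16 cells, 55.6% of Spink4 cells), Tff3 and Fcgbp shared 13, and Fcgbp and Zg16 shared 11 (73.3% of Fcgbp cells, 55.0% of Zg16 cells). Over all 39 cells Zg16 was in 51.3% and Fcgbp in 38.5%. The 75.0% of Zg16 cells with Tff3 lay below the share of Tff3 over all cells. The 75.0% of Zg16 cells with Spink4 lay near that of Spink4. All 5 cells with Muc2 also had Tff3 and Spink4, and 4 of them had Fcgbp. With Tff3 in 82.1% and Spink4 in 69.2% of all cells, their overlap with the few cells of Muc2 or Spdef said little. At 10 or more counts, 7 of 8 cells with Muc2 had Tff3, 5 had Spink4 and 5 had Fcgbp. At this limit Tff3 was in 64.1% of all cells, Spink4 in 53.8% and Fcgbp in 43.6%. All 3 cells with Spdef had Tff3, Fcgbp and Spink4, and 2 of them, cells 63 and 92, had Muc2. Clca1 and Spdef were in 3 cells each and shared none.

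**Figure D4:**
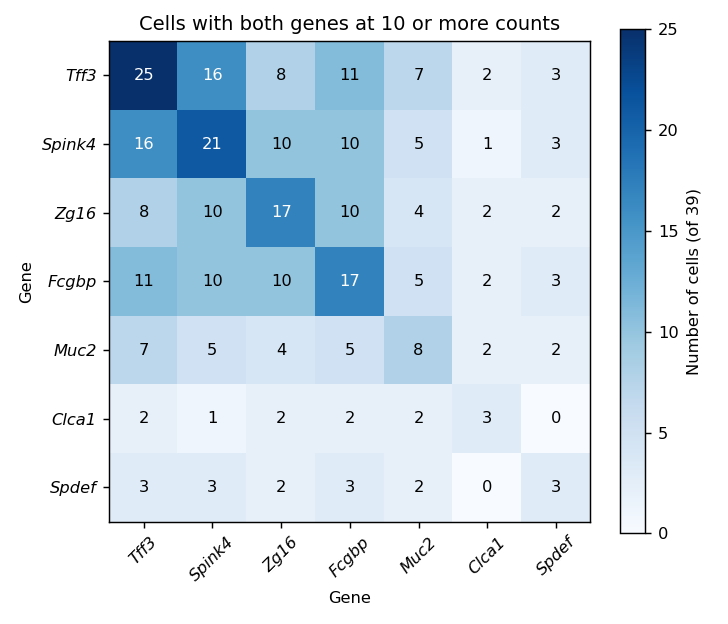
Number of cells (of 39) in which both genes of a pair had 10 or more estimated counts, with the count for each gene alone on the diagonal. Tff3 and Spink4 met in 16 cells, and Spdef met Tff3, Fcgbp and Spink4 in all 3 of its cells.

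Levels across cells were set against each other as the Pearson correlation of log2(FPKM + 1) over 39 cells, given as a description because the libraries differ in depth and hold many zeros. Fcgbp and Spdef had the highest value (r = 0.76), followed by Fcgbp and Spink4 (0.61), Muc2 and Fcgbp (0.58), and Muc2 with Spdef (0.56) and Spink4 with Spdef (0.56). Without cell 63 the first 2 pairs were at 0.67 and 0.47, whereas Muc2 fell to 0.24 with Fcgbp, 0.30 with Spdef and 0.21 with Spink4. Spdef was above 0 in cells 63, 4 and 92 alone, so its values without cell 63 rest on cells 4 and 92. By ranks the same pairs were lower, with Spearman rho of 0.46 for Fcgbp and Spdef, 0.41 for Fcgbp and Spink4, 0.34 for Muc2 and Fcgbp and 0.26 for Muc2 and Spdef. Zg16 was at -0.04 with Tff3 (rho -0.23) and was closest to Clca1 (0.51, rho 0.23). Without cell 63, where Zg16 is at 0, Zg16 went from 0.07 to 0.42 with Muc2, from 0.24 to 0.39 with Fcgbp and from 0.26 to 0.38 with Spdef, and was at 0.01 with Tff3 and 0.18 with Spink4. Cells 63, 4 and 92 were the 3 cells with Fcgbp, Spdef and Spink4 together.

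The genes most like each of the 5 genes found in at least 5 cells were read from 8656 genes found in as many cells. Fcgbp was closest to Reg4 (r = 0.71), which encodes a secreted lectin-like protein, then to Spink4 (0.61), Lyz1 (0.61), Add1 (0.60) and Agr2 (0.60). Reg4 was at 4547 FPKM in cell 63 and 151 FPKM in cell 4, and it was also among the 5 closest genes of Muc2 (0.67) and Spink4 (0.57), values that were -0.05 and 0.35 without cell 63. Muc2 was closest to Hist1h4c (0.68) and Cd97 (0.67), each highest in cell 63, and without that cell the values were 0.18 and -0.10. Of its 5 closest genes, only Gon4l (0.63) stayed above 0.2 without cell 63, at 0.44. Tff3 was closest to Gm684, Klk1b5, Ndrg1, Cog1 and Creb3l1, with r between 0.52 and 0.54, and Fcgbp came sixth for it. Spink4 was followed, after Fcgbp, by Il10rb, Reg4, Ppp1r11 and Ror2 (0.55 to 0.58). For Zg16 the closest genes were Rnf168, Vps13d, Snx13, Rmdn1 and Pip4k2c (0.51 to 0.57), and none of the 4 other genes compared in this way was among its 50 nearest, but 2 were without cell 63.

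Other genes of the goblet programme were read from lists. Of 12 secretory fate regulators, 11 were detected in at least 1 cell, with 9 in cell 4, 9 in cell 65, 7 in cell 63, 4 in cells 5 and 9 and 1 in cell 92, beside a median of 3 over all cells. Atoh1 was found in 4 cells, at 9.63 FPKM in cell 9, 8.84 in cell 65, 7.78 in cell 4 and 1.84 in cell 22, and was at 0.961 FPKM in cell 63. Tff3 was found in all 4 of these cells and Fcgbp in the first 3. Creb3l1 and Creb3l4, transcription factors anchored in the endoplasmic reticulum, were highest in cell 63 at 469 and 325 FPKM, and Klf4, a zinc finger factor of goblet differentiation, reached 60.2 FPKM there. These were the 3 regulators of the list that were highest in cell 63. Foxa1, Foxa2 and Sox4 were below 1 FPKM in it, Foxa3 was highest in cell 96 at 129 FPKM, and Hes1, a Notch target that represses secretory fate, was in 33 cells and highest in cell 52 at 161 FPKM. Dll1, a Notch ligand of secretory progenitors, was at 118 FPKM in cell 4 and highest in cell 34 at 139 FPKM, where only Tff3 and Spink4 were found. Gfi1 was at 0 in all cells.

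Mucin folding genes were led by Agr2, a protein disulfide isomerase that Muc2 needs for its folding. Agr2 was detected in 32 of 39 cells, as often as Tff3, with a median of 27.1 FPKM. It was the most abundant gene of cell 63 at 23329 FPKM and had 15335 FPKM in cell 5, 6447 in cell 4 and 2670 in cell 65, so its 4 highest cells were the 4 with the most Tff3. Hspa5, a general chaperone, was in 39 of 39 cells, and all 8 genes of this list were found in some cell. Ern2, which encodes an unfolded protein sensor, was in 4 cells and highest in cell 7 at 98.6 FPKM.

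Of 9 mucin glycosylation genes, 8 were detected and B3gnt6 was not. Gcnt3, which branches O-glycans, was in 28 cells and highest in cell 63 at 352 FPKM, and the sialyltransferase gene St6galnac1 was at 82.1 FPKM in cell 63 and 22.2 in cell 5 and below 1 FPKM elsewhere. The other 6 detected genes were highest in other cells: Galnt3 in cell 46 at 72.1 FPKM, Galnt7 in cell 14 at 46.9, Galnt12 in cell 92 at 77.7, C1galt1 in cell 5 at 86.4, C1galt1c1 in cell 30 at 303 and Fut2 in cell 71 at 3.04 FPKM. C1galt1, Galnt12 and Fut2 were below 1 FPKM in cell 63. Of 7 granule and secretion genes, Sytl4 was in 3 cells, at 74.6 FPKM in cell 4, 43.5 in cell 22 and 27.8 in cell 63, Vamp8 was in 35 cells, Bcas1 in 1, and Sytl2, Rep15, Capn8 and Capn9 in none. Among the other mucins and trefoil factors, the membrane mucin Muc13 was in 35 cells with a median of 125 FPKM, Muc4 was in 9 cells and Muc20 in 1, and Muc1, Muc5ac, Muc5b, Muc6, Tff1 and Tff2 were in none. Of the other goblet products, Guca2a, which encodes guanylin, was at 2099 FPKM in cell 63, 377 in cell 65, 201 in cell 51 and 190 FPKM in cell 95, and Tpsg1 was found in cell 63 alone at 14.3 FPKM. Lrrc26 was highest in cell 16 at 112 FPKM, with 97.6 FPKM in cell 63, Ang4 was in 13 cells and highest in cell 56 at 118 FPKM, and Retnlb was in no cell.

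**Figure D5:**
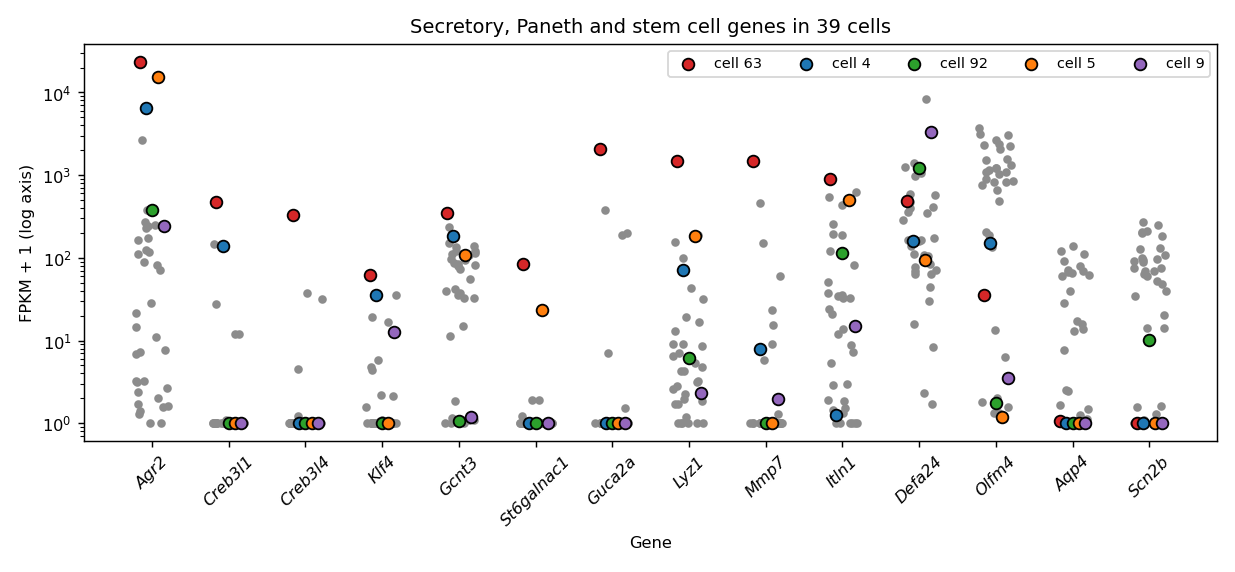
FPKM + 1 on a log axis for 14 genes of the secretory, Paneth and stem cell lists in 39 cells, 1 point per cell, with 5 cells coloured and all others grey. The 14 genes are a selection from the lists, and those from Agr2 to Itln1 are members that were highest in cell 63 (red). Other members, among them Foxa3, Galnt12, Ang4 and Reg3g, were highest in other cells and are not shown. Defa24 was high across cells, and Aqp4 and Scn2b were near 0 in cell 63. Axin2, a stem cell gene at 38.4 FPKM in cell 63, is not shown either.

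Cell 63 was the highest of the 39 cells for Muc2, Fcgbp and Spink4, and for 382 of the 12426 detected genes (3.07%). Several markers of a neighbouring secretory type, the Paneth cell, were high in it as well. Of the 12 Paneth genes, 10 were detected in cell 63, 9 in cell 65, 8 in cell 92, 5 in cells 4 and 9 and 3 in cell 5, beside a median of 5 and a range of 2 to 11 over all cells. Cell 63 had the highest Lyz1 (1498 FPKM), Mmp7 (1471 FPKM), Itln1 (892 FPKM) and Pla2g2a (160 FPKM), whereas Mptx2 and Reg3g were at 0 and Defa5 at 3.54 FPKM in it. Defa24, a Paneth defensin, was found in 38 of 39 cells with a median of 159 FPKM, so RNA of an abundant Paneth product was present in nearly all libraries. Defensin genes are a family of close copies, and counts of single members are uncertain. The summed Paneth level ran from 22.1 to 13976 FPKM per cell, the latter in cell 56, with 4693 FPKM in cell 63, 4303 in cell 9, 2273 in cell 92, 775 in cell 5 and 305 in cell 4. The part of this Paneth RNA in the values of the 7 genes was not tested.

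The stem cell genes differed among the cells with the most goblet RNA. Cell 63 had 34.7 FPKM of Olfm4, a marker of crypt base stem cells with a median of 829 FPKM, and 38.4 FPKM of Axin2, while Lgr5, Aqp4 and Scn2b were below 1 FPKM. Cell 5 had 0 of 7 stem cell genes at 1 FPKM or more and 0 of 5 proliferation genes. Cell 65 had 6 stem cell and 5 proliferation genes, and cell 4 had 3 and 4, with the highest Mki67 of all cells at 158 FPKM. Thus cells rich in Tff3 and Agr2 included both cells with and cells without proliferation genes. In cell 63, 4 of 5 proliferation genes were detected.

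Of the 10 enteroendocrine genes, only Sct and Neurod1 were found in any cell, with Sct at 240 FPKM in cell 63 and 498 FPKM in cell 79. The defining markers Chga, Neurog3, Tac1, Tph1, Cck and Gcg were at 0 in all cells. Of the immune genes Cd68 and Itgam were found in 1 cell each, and of the 5 stromal genes Vim in 1, while Ptprc stayed below 1 FPKM and Cd3e, Cd79a, Col1a1, Col1a2, Pdgfra and Pecam1 did as well. The summed immune and stromal levels were 0 in cells 63, 4, 5, 9 and 65.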

How the data were processed

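RNA of 39 sorted single cells was measured by full-length RNA sequencing. The methods state capture on the C1 system, cDNA from the SMARTer Ultra Low RNA kit, Nextera XT libraries and paired-end reads on an Illumina HiSeq, with microscopic inspection of capture sites, so no doublet caller was run. Per cell, the authors deposited an estimated count and an FPKM value of 25219 genes, positioned on mm10/GRCm38. The submitters' processing notes list bcl2fastq 1.8.4 and TopHat2 2.0.14, and the counting tool and annotation release are not given in the sources used here. Of the estimated counts above 0, 18.4% were not whole (tolerance 1e-06), and none were normalized. FPKM divides by a total that exceeds the sum over genes, of which 33.4% to 95.2% was on genes. Libraries had no molecular identifiers, so a count is not a molecule, amplification affects every value, and intervals cover counting error only. No 2 cells had identical counts.

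FPKM values were used as deposited, with detection at 1 FPKM and a pseudocount of 1 FPKM for log2 values, which understates differences of low genes. Shares have exact Clopper-Pearson 95% intervals. Levels and likeness are descriptions, and no model was fitted because cells are not replicates. The labels gave 1 group, and clusters of cells were not used. The text names the 7 genes, 128 genes of marker and pathway lists (126 in the table) and, for each of the 7 genes found in at least 5 cells, the 5 genes with the highest Pearson correlation. The genes and lists were chosen with earlier results of these data known. Promoter windows came from RefSeq GRCm38.p6, with starts equal to the deposited ones for 6 of the 7 genes and for 58.9% of 25113 genes matched by identifier. Alternatives were other detection limits (above 0, 5 FPKM, 10 counts, and 100 FPKM, added after the values were seen), thinning to 600000 counts with detection at 3 (38 cells), leaving out 2 cells with fewer than 2500 genes, rescaling to a sum of 1000000, a pseudocount of 0.1 FPKM, Spearman correlation, leaving out the highest cell, and leaving out cell 63, also added later. The likeness search was also run on simulated data, and the outcome of that run is not given here. Tools were scipy 1.17.1, pandas 2.3.3, numpy 2.4.6 and matplotlib 3.10.9 under Python 3.11.15.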

Additional observations from a re-analysis of the deposited data

How the results depend on the processing

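The share of cells with at least 1 of the 7 genes was 100% at 1 FPKM and stayed within its interval under 6 of 7 alternatives, from 92.1% after thinning to 100%. At 100 FPKM it was 33.3% (13 of 39 cells). The share with 2 or more genes, 74.4%, was 92.3% when any value above 0 counted and 10.3% at 100 FPKM, and lay between 61.5% and 84.6% under the 5 others. For single genes the share left its interval in 12 of 49 alternatives, of which 7 were the limit of 100 FPKM. Tff3 fell to 64.1% of cells at 10 counts and 60.5% after thinning, Fcgbp to 12.8% at 5 FPKM, and with any value above 0 Fcgbp rose to 71.8% and Muc2 to 38.5%. The mean log2 level moved by more than the spread over cells in 3 of 28 alternatives, for Muc2, Spdef and Clca1 with a pseudocount of 0.1 FPKM. The number of the other genes among the 50 most alike moved by over 1.5 times in 14 of 20 alternatives. No paired analysis was possible because there was 1 group of cells. With 39 cells of unknown animals, spread between mice is unknown, and a gene found in no cell could be detectable in up to 7.69% of cells by the limit of 3 counts and 9.03% by the exact interval, counting error only, with loss before amplification not covered.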

Other observations

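Some of the goblet genes were also found in cells with many genes of another type, the tuft cell, a chemosensory cell of the epithelium. Cells 79 and 96 had 6 and 7 of the 8 tuft cell genes, among them Avil at 386 and 1162 FPKM, Alox5ap at 3311 and 5443 FPKM and Dclk1, a tuft cell kinase, at 105 and 222 FPKM. Dclk1 and Avil were below 1 FPKM in all other cells. Cell 79 had 85.1 FPKM of Tff3, 65.03 of Spink4 and 1.996 of Muc2, and no Zg16. Cell 96 had 0.644 FPKM of Tff3, 18.8 of Spink4 and 13.9 of Zg16. The summed level of the 7 genes was 152 FPKM in cell 79 and 33.3 in cell 96, beside a median of 86.6 over all cells. Cell 79 also had 40997 FPKM of Fabp1, a fatty acid binding protein of enterocytes, against 1095 FPKM in the next cell, and 2335 genes detected. Fabp2, of the same family, was found in 35 of 39 cells.

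Ly6a, the gene of the marker used to exclude cells, was at 509 FPKM in cell 34 and 477 FPKM in cell 5, and at 3.44 FPKM or less in the other cells. Cell 5 was the cell with the most Tff3 and the second for Agr2, and cell 34 had 18.9 FPKM of Tff3 and the highest Dll1. Clu, which marks a regenerative state after injury, was highest in cell 92 at 1124 FPKM, a cell with 6 of the 7 goblet genes, and at 0.464 FPKM in cell 9, the other cell with 6. The second highest Clu was 304 FPKM in cell 67, where Tff3 alone was found. The relation of these values to the sort was not tested.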
